A study of Mus musculus with 305 samples.

Results

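Zswim6 (ENSMUSG00000032846) is 1 of 52636 genes in the deposited count table, and its transcript level is described here across 6 brain regions of heroin and saline mice. The gene was chosen by its own readout: it is higher in prefrontal cortex (PFC) after a heroin challenge at 30 d of withdrawal. The PFC values of the 30 d mice are therefore given as a description, without a test, and tests are confined to the other regions, to the mice taken at 24 h, to differences between regions and to relations between regions of 1 mouse. On GRCm38 the gene lies on the minus strand at chr13:107724617-107890064, a span of 165448 bases with 5550 bases of merged exon, and its longest annotated transcript has 13 exons. GENCODE M21 types the gene as a processed transcript, whereas the RefSeq table lists it as protein coding.

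ZSWIM6 belongs to a small family of proteins that share a SWIM-type zinc finger. In mice it is known as a gene needed for the normal development of the striatum and of its medium spiny neurons, the projection cells that receive dopamine input. The related protein ZSWIM8 is a substrate receptor of a cullin-RING ubiquitin ligase and is known for its part in target-directed microRNA decay. Immediate early genes, used below for comparison, are transcribed within minutes of neuronal activity.

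All 51 mice were male and wild-type, and each took saline or heroin, an opioid agonist, by intravenous self-administration for 15 d. S24 (8 mice, saline) and H24 (11 mice, heroin) were taken after 24 h of withdrawal. The other 4 groups, of 8 mice each, spent 30 d in withdrawal, received a challenge and underwent a drug-seeking test of 2 h: SS (saline intake, saline challenge), SH (saline intake, heroin challenge), HS (heroin intake, saline challenge) and HH (heroin intake, heroin challenge). The amount of drug each mouse took is not given in the sources used here, and the seeking test was given to all 4 of the 30 d groups. The regions are labelled BLA (basolateral amygdala), NAc (nucleus accumbens), PFC, VTA (ventral tegmental area), dStri (dorsal striatum) and vHPC (ventral hippocampus).

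In each region 50 or 51 libraries were used, with library totals of 19.31 to 61.35 M counts (M for mega) and 581 to 7411 counts for Zswim6 in a library. Levels are given in CPM, the count per M counts of the library. Replicates are separate mice, by the mouse numbers in the labels. The VTA library of HH mouse 7, with 0.89 M counts, was left out, and S24 mouse 37 has no BLA library among those used. Markers of striatal projection neurons had a mean log2 CPM of 8.79 in dStri and 8.23 in NAc of S24 mice, against 3.00 to 6.21 in the other 4 regions, and dopamine neuron markers had 6.24 in VTA against 0.94 to 2.22 elsewhere. Of the libraries used, 8 stood apart from their region, none of them in PFC or NAc. They were BLA H24 mice 39 and 42 and SS mouse 6, dStri HH mouse 9, vHPC HH mouse 18, vHPC SH mouse 27 and SS mouse 28, and VTA S24 mouse 37. The vHPC libraries of mice 27 and 28 were nearest to the median profile of BLA. The 24 h and the 30 d mice carry different sample code sets in their BLA titles, so time and code set cannot be told apart and the 2 times were not compared.

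The sequence upstream of the gene is shown because the transcript is described below beside immediate early genes, many of whose promoters hold cAMP response and AP-1 elements. The 250 bases before the RefSeq start (GRCm38.p6, chr13:107890065-107890314, minus strand, written 5′ to 3′ toward the gene) are given with the short CRE core (CGTCA) in capitals.
Zswim6 upstream: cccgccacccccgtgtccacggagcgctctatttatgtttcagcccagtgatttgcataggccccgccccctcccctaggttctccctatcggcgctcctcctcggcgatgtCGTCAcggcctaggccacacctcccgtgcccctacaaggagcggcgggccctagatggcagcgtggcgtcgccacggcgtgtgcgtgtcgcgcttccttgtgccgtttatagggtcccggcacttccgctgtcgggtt
The short core TGACG was found once, on the opposite strand as CGTCA. Searched on both strands, it is in 17.8% of 32851 RefSeq windows of the same length. A GC box (GGGCGG), not capitalised, starts 187 bases before the gene start and is in 32.7% of windows. No full CRE (TGACGTCA, 1.55% of windows), AP-1 element (TGANTCA, 6.75%), NBRE (AAAGGTCA, 1.34%), EGR element (GCGTGGGCG, 0.536%) or CCAAT box (CCAAT, 33.8%) was found in this window. The TGACG core is part of the full CRE, so the searches overlap. The GC content of the window was 66%, against a median of 52.4% over all windows.

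Zswim6 transcripts were most abundant in dStri, second in NAc and far lower in the other 4 regions. Over all groups the dStri level ran from 112.6 to 174.4 CPM (mean 152.2 ± 15.4, SD, n = 51) and the NAc level from 66.4 to 120.1 CPM (93.9 ± 11.9, n = 51). The ranges of dStri and NAc overlapped slightly across mice. In vHPC the level was 42.8 ± 5.18 CPM (n = 51), in BLA 37.7 ± 5.41 (n = 50), in VTA 35.2 ± 3.97 (n = 50) and in PFC 32.6 ± 5.45 (n = 51). No library of these 4 regions exceeded 57.7 CPM, below the lowest NAc library. Of the 49 mice with all 6 regions, dStri was the highest region in 49 and NAc the second highest in 49, and within a mouse the ratio of dStri to NAc ran from 1.12 to 2.388 with a median of 1.61. The lowest region was PFC in 28 of these mice, VTA in 11 and BLA in 10.

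**Figure D1:**
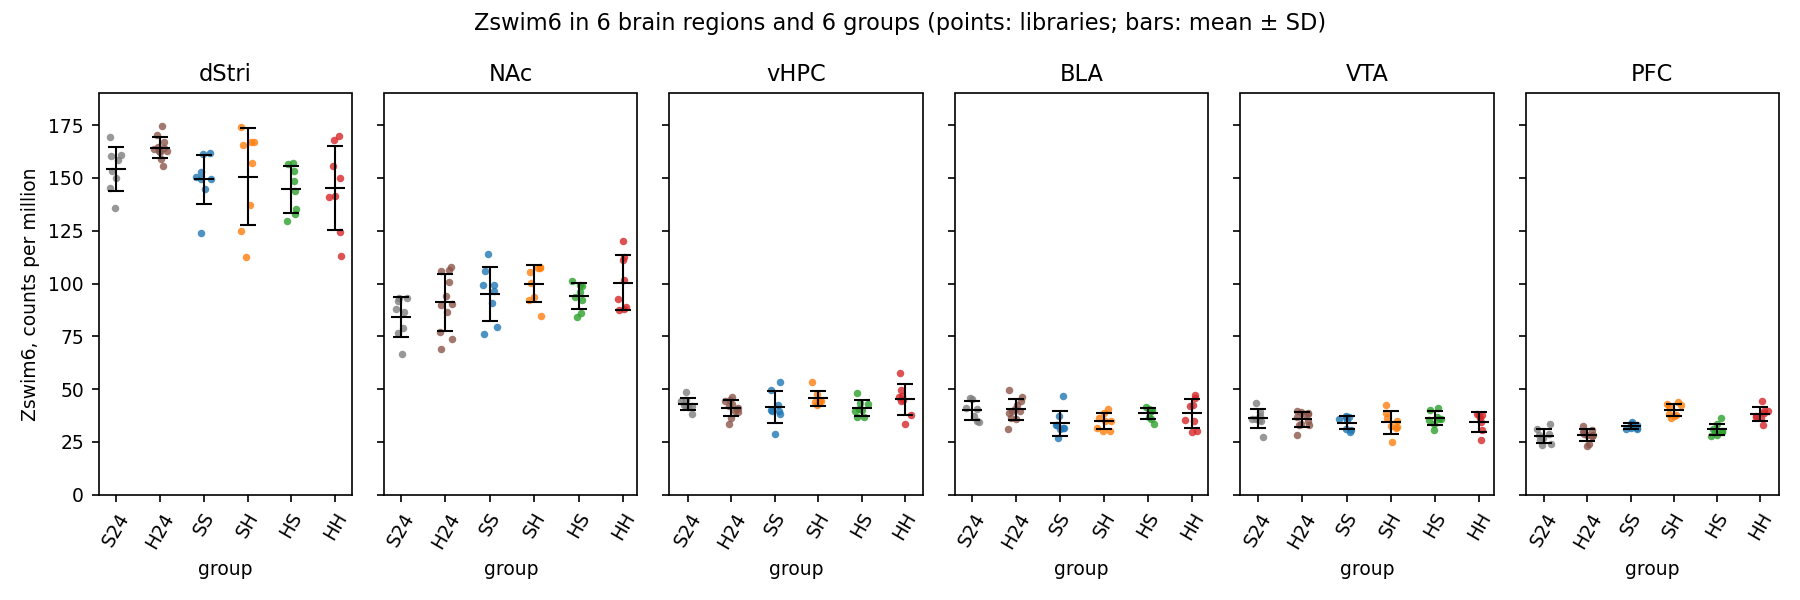
Zswim6 in CPM (vertical axis) for each library, by region (panels) and group (horizontal axis), with bars for mean ± SD. The dStri libraries start at 112.6 CPM, and those of vHPC, BLA, VTA and PFC end at 57.7 CPM.

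The tests between regions used the S24 mice alone, with the mouse as a block. Their levels were 154.2 ± 10.5 CPM in dStri, 84.3 ± 9.55 in NAc, 42.98 ± 2.97 in vHPC, 39.9 ± 4.62 in BLA (n = 7), 36.1 ± 4.50 in VTA and 27.6 ± 3.41 in PFC (mean ± SD, n = 8 otherwise). Of the 15 pairs of regions, 14 differed in Zswim6 by edgeR at an adjusted p under 0.05. The share of all 21427 genes called in these pairs ran from 17.2% (NAc against dStri) to 62.8% (VTA against dStri), so a call between regions is common. The log2 difference of NAc minus dStri was -0.90 ± 0.0801 (SE, adjusted p = 1.29e-11, 17.2% of genes called). PFC minus dStri was -2.48 ± 0.0845 (adjusted p = 7.83e-26, 46.4% called), and 1089 genes differed by more. This was the lowest such count of the 15 pairs. It was 2256 in NAc minus dStri, 13348 in PFC minus VTA and, as the highest, 16062 in BLA minus vHPC. NAc minus PFC was 1.58 ± 0.0823 (adjusted p = 7.70e-20, 40.9% called).

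Among the 4 regions with lower levels the steps were small. BLA and vHPC, neighbours in the order, did not differ beyond their spread, with a log2 difference of -0.11 (95% interval -0.28 to 0.06, edgeR adjusted p = 0.378, 25.6% of genes called). BLA lay above VTA by 0.25 ± 0.0837 (adjusted p = 0.0105, 51.6% called), a call that ended without TMM factors (0.16, adjusted p = 0.103). PFC lay below VTA by a log2 difference of -0.33 ± 0.0811 (adjusted p = 0.00054, 53.3% called) and below BLA, with BLA minus PFC at 0.58 ± 0.0843 (adjusted p = 8.40e-07, 19.2% called). In SS mice the fitted order of the 4 low regions was the same but the steps differed in size. BLA minus PFC was 0.10 ± 0.0987 and PFC minus VTA -0.04 ± 0.0988 there. These 2 values are given without a test, because the SS libraries of PFC were used to choose the gene. BLA minus vHPC reached -0.30 ± 0.0983 in SS mice (edgeR adjusted p = 0.0326, 15.1% of genes called). Of 6 runs of this pair, it was the 1 that passed. It includes the BLA library of mouse 6 and the vHPC library of mouse 28, which stand apart. Of the other called pairs, VTA minus dStri was -2.15 (62.8% of genes called), BLA minus dStri -1.89 (44% called) and dStri minus vHPC 1.78 (51.6% called). NAc minus VTA was 1.243 (57.6% called), BLA minus NAc -0.99 (35.5% called) and NAc minus vHPC 0.88 (46.4% called). PFC minus vHPC was -0.70 (31.8% called) and VTA minus vHPC -0.36 (adjusted p = 0.000189, 50.2% called). The order of dStri above NAc, and of NAc above each other region, passed in every alternative run, though NAc minus PFC in SS uses libraries that chose the gene.

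Zswim5 and Zswim4, like Zswim6, had their highest mean level in dStri and the second highest in NAc. Per kb of merged exon, Zswim6 stood at 27.4 ± 2.77 CPM in dStri, 16.9 ± 2.14 in NAc, 7.70 ± 0.933 in vHPC, 6.80 ± 0.974 in BLA, 6.34 ± 0.716 in VTA and 5.88 ± 0.982 in PFC (mean ± SD over libraries). Zswim5, whose protein is closely related, stood at 11.8 ± 1.36 CPM per kb in dStri, 10.9 ± 1.34 in NAc and 2.80 ± 0.456 in PFC. In S24 mice Zswim5 differed by a log2 value of 1.99 ± 0.109 between NAc and PFC (adjusted p = 3.77e-19, edgeR) and by -0.07 ± 0.104 between NAc and dStri (adjusted p = 0.718), so unlike Zswim6 it was not called between the 2 striatal regions; the difference between the genes was not tested. Zswim8, the ligase receptor, was high in every region, at 14.7 to 19.4 CPM per kb, and exceeded Zswim6 in each region but dStri. Its PFC minus dStri difference was 0.10 ± 0.0732 (adjusted p = 0.28).

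Zswim4 stood at 7.66 CPM per kb in dStri, 6.08 in NAc and 4.37 to 5.29 in the other 4 regions. It was lower in NAc than in dStri by a log2 difference of -0.38 ± 0.104 (edgeR adjusted p = 0.00781), as Zswim6 was, and lower in PFC than in dStri by -0.68 ± 0.105 (adjusted p = 6.10e-07). Zswim9 was lower in PFC than in dStri by -0.47 ± 0.119 (adjusted p = 0.00108). Zswim3 was higher in PFC by 0.63 ± 0.0963 (adjusted p = 4.98e-07) and Zswim1 by 0.39 ± 0.109 (adjusted p = 0.00285), while Zswim7 differed by 0.06 ± 0.143 (adjusted p = 0.77). Zswim2 was near 0 in all regions, with at most 0.34 CPM per kb in a library, and did not pass the filter on low counts.

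**Figure D2:**
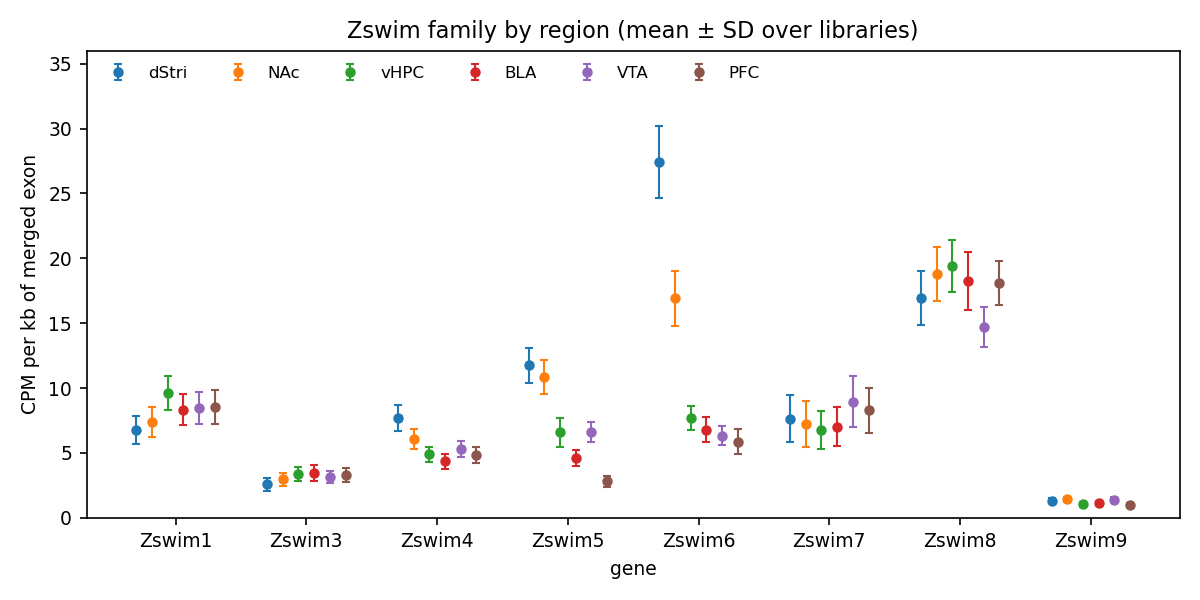
Level of 8 Zswim genes in CPM per kb of merged exon (vertical axis) by region (colours), as mean ± SD over libraries. Zswim6 has its highest point in dStri at 27.4 and its lowest in PFC at 5.88, Zswim5 runs from 11.8 in dStri to 2.80 in PFC, and Zswim8 stays between 14.7 and 19.4.

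Striatal projection neuron markers shared the direction of the Zswim6 difference of PFC and of NAc from dStri. Of 15 markers 15 were called lower in PFC than in dStri (median log2 difference -4.71, 46.4% of all genes called) and 10 of 15 were called lower in NAc than in dStri (median -0.72, 17.2% called), with 1 higher. Cortical and hippocampal excitatory neuron markers went the other way, with 13 of 14 called higher in PFC than in dStri (median 4.96). Among the regions with lower levels, striatal markers and Zswim6 shared a direction in some pairs only. In PFC minus vHPC 11 of 15 markers were called higher (median 1.33, 31.8% of genes called), against -0.70 for Zswim6. In PFC minus VTA 10 were called higher and 2 lower (median 1.41, 53.3%), against -0.33. In BLA minus vHPC 14 were called higher (median 4.09, 25.6%), against -0.11, which was not called. In VTA minus vHPC 5 were called higher and 4 lower (median -0.08, 50.2%), against -0.36. The direction was shared in BLA minus PFC (median 1.94, 19.2%, Zswim6 0.58) and BLA minus VTA (3.33, 51.6%, 0.25). In bulk tissue, fewer cells of a type and less RNA per cell cannot be told apart, and the part of cell composition in the regional level of Zswim6 was not tested. Over the 36 means of 6 regions and 6 groups, the genes most like Zswim6 among 13417 compared were Krt10, a keratin (Pearson r = 0.98), Mapkap1, a subunit of the mTORC2 kinase complex (0.98), Mbtps1, a protease of the Golgi (0.98), Ccdc88c (0.97) and Bag5, a co-chaperone of Hsp70 (0.97). The points of a group share mice across regions, and the points are mostly spread by region. Krt10 stood at 11.6 CPM in dStri, 7.16 in NAc and 1.92 in PFC, and Mbtps1 at 171.3, 136.4 and 76.7 CPM.

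In PFC, where the gene was chosen, every SH library lay above every SS library. The SS libraries held 31.0 to 34.2 CPM (median 32.3) and the SH libraries 36.1 to 43.8 CPM (median 40.2), so these groups did not overlap. How many other genes show no overlap was not counted. Of all 19976 genes tested, 3244 had a larger log2 difference of SH against SS in size. Among the 4695 genes within 2-fold of the Zswim6 mean CPM in PFC, 46 did. Zswim6 was chosen for its rise in PFC, so its place by size is no test. The HS libraries held 27.9 to 36.1 CPM (median 30.1) and the HH libraries 33.0 to 44.5 CPM (median 37.9). HH and HS overlapped: 7 of 8 HH libraries lay above the highest HS library, and 8 of 8 above the HS mean. The means were 32.4 ± 1.304 CPM in SS, 40.1 ± 3.05 in SH, 30.9 ± 2.75 in HS and 38.2 ± 3.33 in HH (SD, n = 8 each). The S24 libraries held 23.5 to 33.4 CPM (median 27.6) and the H24 libraries 23.2 to 32.5 CPM (median 28.4).

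The log2 difference of SH against SS was 0.33 ± 0.0584 (SE of the edgeR fit) and that of HH against HS 0.33 ± 0.0583. These comparisons have no mice in common, and the difference between them was 0.001 ± 0.0823. Both were used to choose the gene, so their likeness is no replication. With the same challenge, the history of intake gave small differences, of -0.07 ± 0.0586 for HS against SS and -0.07 ± 0.0580 for HH against SH. Leaving out each of the 32 libraries in turn gave 0.33 to 0.38 for SH against SS and 0.31 to 0.37 for HH against HS. Within code set 1 the values were 0.33 (4 SH against 3 SS mice) and 0.34 (6 HH against 6 HS), and within code set 2 they were 0.35 (4 against 5) and 0.32 (2 against 2). All these values reuse the libraries that chose the gene, so they describe the spread and give no independent support.

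**Figure D3:**
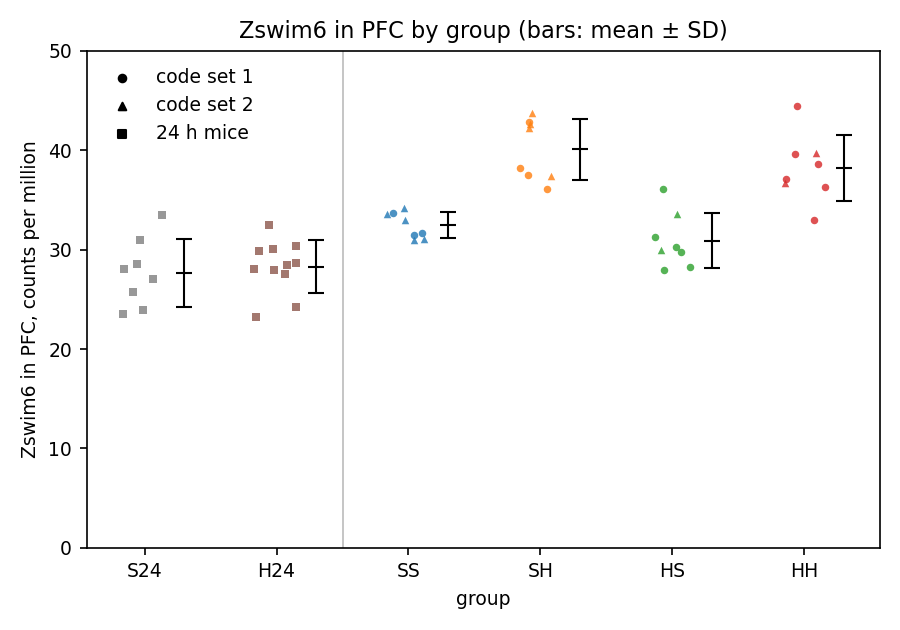
Zswim6 in PFC in CPM (vertical axis) by group (horizontal axis), with a symbol for the code set of the mouse and bars for mean ± SD. The SH libraries start at 36.1 CPM, above the SS libraries, which end at 34.2, and the HH libraries run from 33.0 to 44.5 against 27.9 to 36.1 in HS.

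The PFC comparisons called few genes in all. SH against SS called 3 of 19976 genes (0.015%) by edgeR and had 1119 at an unadjusted p under 0.05, and DESeq2 called 12 (7 higher and 5 lower). Apart from Zswim6, which was chosen for this difference, the genes called by edgeR were Acer2, an alkaline ceramidase, at -1.10 ± 0.165, and Dio2, the deiodinase that makes active thyroid hormone, at 0.54 ± 0.0951. The next genes by edgeR, not called, were Lcn2 at -1.55 ± 0.308 (adjusted p = 0.0579) and Il1r1 at -0.76 ± 0.159 (adjusted p = 0.108). Fosb at 0.52 ± 0.113, Inhba at 0.50 ± 0.109 and Dhrs3 at 0.39 ± 0.0851 followed, each with an edgeR adjusted p = 0.113. HH against HS called 5 genes (0.025%) and had 1327 at an unadjusted p under 0.05, and DESeq2 called 11 (9 higher and 2 lower). Apart from Zswim6 these 5 were the immediate early genes Dusp6, Egr2, Nr4a1 and Fosl2. The gene was chosen on these comparisons, so its own place among the called genes is no test.

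Most immediate early genes had higher values in the same PFC libraries. Of 30 genes, 29 had a higher value in SH than in SS (median log2 difference 0.27, against -0.01 over all genes tested), and 0 were called by edgeR, with 21 at an unadjusted p under 0.05 (over all genes, 1119 of 19976). In HH against HS 28 of 30 had a higher value (median 0.33, against -0.01 over all genes), and 4 were called: Dusp6, a phosphatase that turns off ERK, at 0.47 ± 0.0745, Egr2 at 0.88 ± 0.159, the nuclear receptor Nr4a1 at 0.64 ± 0.121 and the AP-1 gene Fosl2 at 0.40 ± 0.0774. Fos itself differed by 0.41 ± 0.139 in SH against SS and by 0.63 ± 0.139 in HH against HS, without passing (adjusted p = 0.589 and 0.111, edgeR). In NAc, where 26 of 30 immediate early genes had a higher value in SH (median 0.21), Zswim6 differed by 0.06 ± 0.0787. With the immediate early gene score of the library as a covariate the Zswim6 differences in PFC were 0.36 ± 0.0704 and 0.37 ± 0.0788. This fit reuses the libraries that chose the gene, and most genes of the score had higher values in the challenge groups. Whether the Zswim6 difference is tied to that of the immediate early genes was not tested.

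Several lists of markers of other cells had lower values in the challenge groups in PFC, without a member that passed. All 15 oligodendrocyte markers had lower values in SH than in SS (median log2 difference -0.53, 11 at an unadjusted p under 0.05, where 1119 of all 19976 genes were), and their summed level ran from 1207 to 3837 CPM in SS and from 1221 to 3386 CPM in SH, which overlap, with none at 0 in any library. Their part in the Zswim6 difference was not tested. All 12 meningeal fibroblast markers had lower values (median -0.81, 7 at an unadjusted p under 0.05), with a summed level of 39.6 to 99.4 CPM in SS and 21.0 to 54.1 CPM in SH. Of 14 endothelial and mural markers 13 had lower values (median -0.20, sums of 364.1 to 502.6 and 307.8 to 410.8 CPM), and of 7 blood markers measured 7 (median -0.16). In HH against HS the medians were -0.31, -0.75, -0.12 and -0.28 for these 4 lists, with 15 of 15, 11 of 12, 11 of 14 and 7 of 7 lower. The summed oligodendrocyte level ran from 1435 to 3633 CPM in HS and 1194 to 2756 CPM in HH, and the meningeal level from 42.7 to 100.4 CPM in HS and 28.2 to 70.01 CPM in HH, where 1 meningeal marker was at 0 in a library. Among the blood markers 3 to 6 of 11 were at 0 in a library of each group. Cortical and hippocampal excitatory neuron markers had higher values in 12 of 14 for SH (median 0.05) and 9 of 14 for HH (median 0.08). Across the 12 cell type lists 0 members were called by edgeR in either comparison, where 0.015% and 0.025% of all genes were. With the oligodendrocyte score as a covariate the Zswim6 difference was 0.32 for SH against SS, with the meningeal score 0.31 and with the excitatory neuron score 0.32, and for HH against HS it was 0.33, 0.31 and 0.31. These fits reuse the libraries that chose the gene, and the scores come from the same libraries. They describe the values, and the part of cell composition was not tested.

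The share of reads outside genes and the scaling were also recorded for the PFC libraries. Reads in no annotated feature were 12.7 ± 4.03% in SS, 11.6 ± 2.425% in SH, 10.6 ± 3.97% in HS and 10.3 ± 1.52% in HH (SD, n = 8), and with this share as a covariate the Zswim6 differences were 0.34 and 0.34. With the scaling constants of the authors they were 0.34 and 0.33, and with DESeq2 0.33 and 0.33. Zswim6 has a long span, and 1705 genes with spans of 100 to 250 kb had a median log2 difference of -0.01 in SH against SS and 0.02 in HH against HS.

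The family and the neighbours of Zswim6 did not pass in PFC. Of the 7 other Zswim genes measured, 6 had higher and 1 lower values in SH than in SS (median 0.08) with 0 called by edgeR and 0 at an unadjusted p under 0.05. Zswim5 differed by -0.02 ± 0.0855 and Zswim8 by 0.09 ± 0.0681. In HH against HS 5 were higher and 2 lower (median 0.09, 0 called, 0 at an unadjusted p under 0.05), with Zswim5 at 0.14 ± 0.0852. Of 17 parts of cullin ligases, such as the cullins and their adaptors, 6 were higher and 11 lower in both comparisons (medians -0.02 and -0.01) and 0 were called by edgeR, with 0 and 1 at an unadjusted p under 0.05.

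Within 500 kb of Zswim6 the table holds 17 other genes, of which 7 passed the filter in PFC, and 0 were called by edgeR (1 at an unadjusted p under 0.05 in each comparison). Ndufaf2, which lies upstream of the start and encodes an assembly factor of respiratory complex I, differed by 0.30 ± 0.108 in SH against SS (adjusted p = 0.662, edgeR) and by 0.002 ± 0.108 in HH against HS (adjusted p = 0.999). Smim15 differed by 0.04 ± 0.0822 and -0.02 ± 0.0818, and Ercc8, a DNA repair gene, by 0.05 ± 0.0902 and -0.03 ± 0.0896. Elovl7, a fatty acid elongase, differed by -0.25 ± 0.132 and -0.20 ± 0.131, AI197445 by -0.52 ± 0.313 and -0.36 ± 0.309, the pseudogene Apoo-ps by 0.52 ± 0.397 and 0.17 ± 0.396, and the pseudogene Gm8990 by -0.08 ± 0.332 and -0.80 ± 0.329 (edgeR adjusted p = 0.711 for the last value). The single gene that overlaps Zswim6, Gm22118, had at most 11 counts in any library.

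Over the 32 PFC libraries at 30 d, the genes most like Zswim6 among 13328 compared were Dio2 (Pearson r = 0.69), Ppp1r3c, which targets a phosphatase to glycogen (0.64), Adamts3, a secreted protease (0.62), the AP-1 gene Fosb (0.62) and Mtf1, a metal-responsive transcription factor (0.62). These libraries include the group differences and were used to choose the gene, so the values describe the libraries and carry no test. Ppp1r3c differed by 0.32 ± 0.0789 in SH against SS and by 0.18 ± 0.0787 in HH against HS, and Fosb by 0.52 ± 0.113 and 0.47 ± 0.113. Dio2 differed by 0.43 ± 0.095 in HH against HS, Mtf1 by 0.15 ± 0.0525 and 0.14 ± 0.0522, and Adamts3 by 0.19 ± 0.113 and 0.24 ± 0.112. The regional levels of these genes differ from those of Zswim6: Dio2 stood at 118.7 CPM in PFC and 86.6 in dStri, whereas Adamts3 stood at 11.6 and 74.5 CPM.

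Outside PFC, Zswim6 passed in none of the comparisons of groups. In dStri, the region of the highest level, SS libraries ran from 123.98 to 161.9 CPM (median 149.9), SH from 112.6 to 174.1 (161.4), HS from 129.4 to 157.2 (146.2) and HH from 113.02 to 170.1 CPM (145.5). All 4 groups overlapped. SH against SS differed by 0.03 on the log2 scale (95% interval -0.15 to 0.20) and HH against HS by 0.02 (-0.15 to 0.19). The edgeR adjusted p-values were 0.984 and 0.998, with 0% of 19492 genes called in either comparison; DESeq2 called 3 genes in each, Zswim6 not among them, and 1077 and 842 genes were below an unadjusted p of 0.05.

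In NAc the challenge differences were 0.06 (-0.10 to 0.22) for SH against SS and 0.12 (-0.04 to 0.28) for HH against HS (adjusted p = 1.00 for both by edgeR). SH against SS called 0.00506% of genes there, and HH against HS called 0%, with 533 at an unadjusted p under 0.05 and 0 by DESeq2. The SS libraries there ran from 76.2 to 114.1 CPM (median 97.9), SH from 84.7 to 107.97 (103.03), HS from 83.96 to 101.1 (94.9) and HH from 87.3 to 120.1 CPM (97.3), all overlapping. In vHPC the differences were 0.09 (-0.13 to 0.31) and 0.15 (-0.07 to 0.37), with adjusted p = 1.00 and 0.999 by edgeR and 0% of genes called (462 and 665 at an unadjusted p under 0.05, 0 by DESeq2). SH libraries in vHPC held 42.2 to 53.3 CPM (median 44.4) and SS libraries 28.7 to 53.3 (40.0), and 8 of 8 SH libraries lay above the SS mean although the groups overlapped. Without the libraries that stand apart the vHPC values were 0.04 and 0.21.

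In BLA the challenge differences were 0.04 (-0.15 to 0.22) and -0.01 (-0.19 to 0.18), and in VTA -0.02 (-0.21 to 0.18) and -0.06 (-0.26 to 0.14), with edgeR adjusted p from 0.989 to 1.00. In these 4 comparisons 0% of genes were called and 0 by DESeq2, with 331 to 938 below an unadjusted p of 0.05. BLA medians were 32.3 CPM in SS, 34.9 in SH, 39.7 in HS and 38.5 in HH, and VTA medians 35.4, 33.7, 35.8 and 36.3 CPM (n = 7 in HH). Because the PFC values chose the gene, the difference between PFC and the other regions in the response was not tested.

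**Figure D4:**
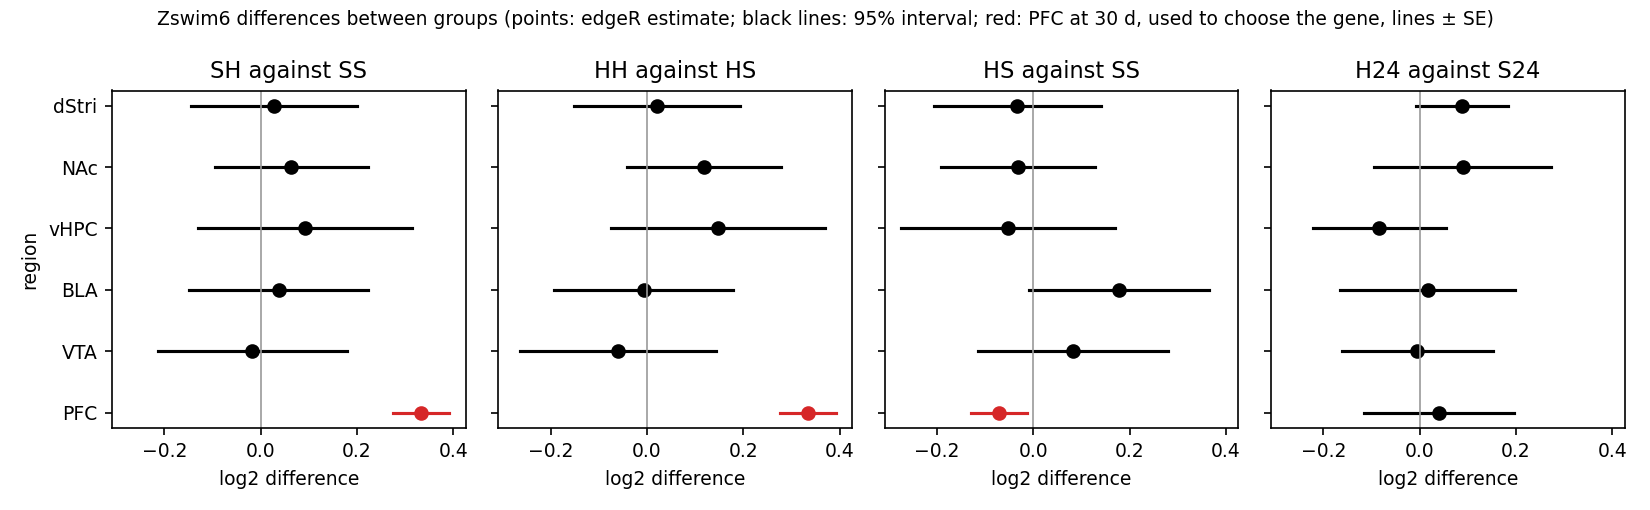
Log2 difference of Zswim6 (horizontal axis) in 4 comparisons of groups (panels) and 6 regions (vertical axis), with 95% intervals in black, or ± SE in red for the PFC values used to choose the gene. The PFC points for SH against SS and HH against HS lie at 0.33, and all black intervals include 0.

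A history of heroin intake, under the saline challenge, gave its largest Zswim6 difference in BLA. There SS libraries held 26.7 to 46.7 CPM (median 32.3) and HS libraries 33.6 to 41.4 (39.7), 7 of 8 of them above the SS mean. The log2 difference was 0.18 ± 0.0917 (95% interval -0.01 to 0.36), with an unadjusted p = 0.0607 and an adjusted p = 1.00 by edgeR, 605 genes at an unadjusted p under 0.05, 0% called and 0 called by DESeq2. SS mouse 6, the highest of its group in BLA at 46.7 CPM, is a library that stands apart, and without such libraries the value was 0.25. In the other regions HS against SS ran from -0.05 in vHPC to 0.08 in VTA, and HH against SH from -0.04 in dStri to 0.13 in BLA (edgeR adjusted p from 0.981 to 1.00, 0% called, 410 to 1441 genes at an unadjusted p under 0.05, 0 or 1 by DESeq2). The test of whether the challenge difference depends on the history gave -0.04 ± 0.130 in BLA, 0.05 ± 0.111 in NAc, -0.04 ± 0.139 in VTA, -0.01 ± 0.121 in dStri and 0.06 ± 0.154 in vHPC (edgeR adjusted p from 0.98 to 1.00, 0% called, 374 to 1101 genes at an unadjusted p under 0.05, 0 or 1 by DESeq2).

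After 24 h of withdrawal from heroin, Zswim6 differed little between H24 and S24 in any region. In PFC the difference was 0.04 ± 0.0756 (95% interval -0.12 to 0.20, edgeR adjusted p = 1.00; 0% of 18340 genes called, 454 at an unadjusted p under 0.05, 0 by DESeq2). These mice received no challenge and were not used to choose the gene. In dStri the H24 libraries held 155.7 to 174.4 CPM (median 163.9) and the S24 libraries 135.9 to 169.5 (155.8). All 11 H24 libraries lay above the S24 mean, though the groups overlapped, and the log2 difference was 0.09 ± 0.0468 (-0.01 to 0.18, unadjusted p = 0.0696, adjusted p = 1.00). In NAc it was 0.09 ± 0.0896, in vHPC -0.08 ± 0.0665, in BLA 0.02 ± 0.0874 and in VTA -0.005 ± 0.0758, with edgeR adjusted p from 0.845 to 1.00. In these regions and dStri 0% of genes were called by edgeR and 0 to 26 by DESeq2, with 703 to 1430 below an unadjusted p of 0.05. Zswim5 differed by 0.17 ± 0.073 in dStri, 0.23 ± 0.116 in PFC and -0.21 ± 0.112 in vHPC, also without passing (edgeR adjusted p = 0.94, 0.9999 and 0.9998). In NAc, BLA and VTA Zswim5 differed by 0.03 ± 0.0958, -0.007 ± 0.0800 and -0.02 ± 0.0887.

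The levels of 2 regions in the same mouse were compared next. After removal of the group mean, the log2 level was compared over mice between the 15 pairs of regions, with a two-sided permutation test of 100000 resamples within groups, adjusted over the 15 pairs. PFC and NAc gave a Pearson r of -0.002 (permutation p = 0.989, adjusted 0.989; Spearman rho = -0.004, p = 0.981, n = 51), with r of 0.40, -0.11 and -0.20 within code sets 1, 2 and 3. PFC and dStri gave r = 0.05 (permutation p = 0.719, adjusted 0.834; rho = 0.03, p = 0.857), with r of 0.23, -0.59 and -0.07 within the sets, and r = 0.04 in set 2 without the 2 mice farthest from the median. None of these values passed adjusted. By Pearson r, 0 of 15 pairs passed, and by Spearman rho 1 of 15.

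That pair was NAc and VTA, in which mice high in one were low in the other. Pearson r was -0.38 (permutation p = 0.0055, adjusted 0.0825) and Spearman rho -0.43 (p = 0.00247, adjusted 0.037; n = 50). Without the 2 mice farthest from the median in NAc r was -0.40. Within the code sets r was -0.59 (set 1, n = 18, p = 0.0337), -0.54 (set 2, n = 13, p = 0.0789) and -0.24 (set 3, the 24 h mice, n = 18, p = 0.343), each a permutation p, and none passed adjusted. With library totals in place of TMM factors rho was -0.41 (adjusted permutation p = 0.0699), so the call rests on the scaling. BLA and vHPC had r = 0.41 (permutation p = 0.0111, adjusted 0.0829) but rho = 0.23 (p = 0.135), and r fell to 0.13 without the libraries that stand apart.

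**Figure D5:**
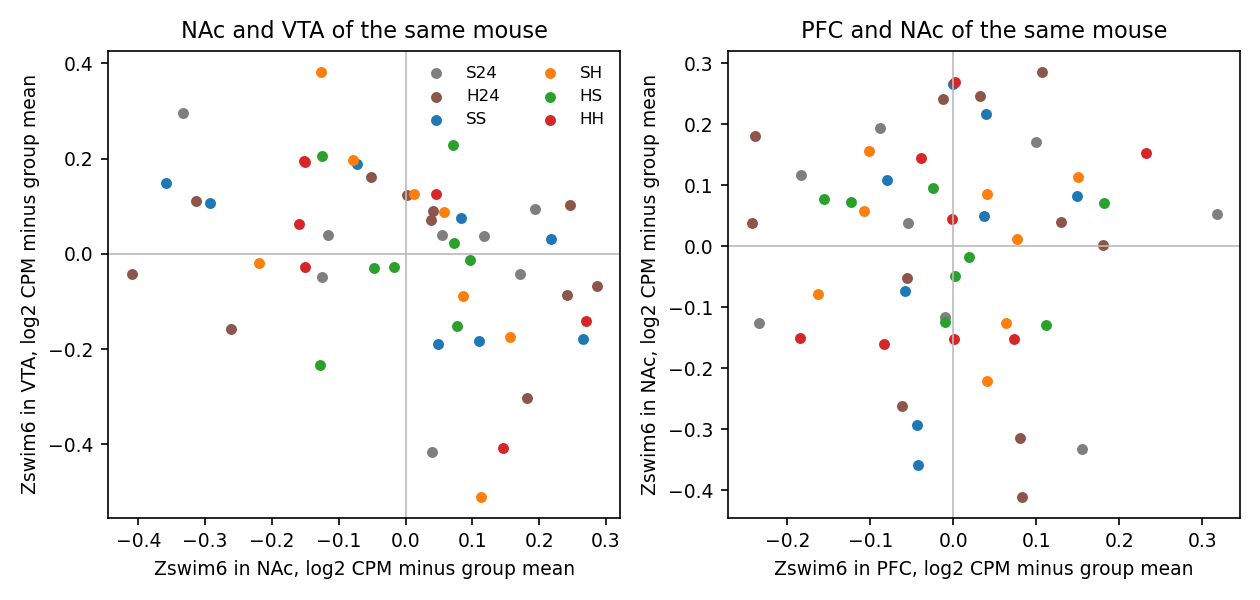
Zswim6 in 2 regions of the same mouse, as log2 CPM minus the group mean on both axes, for NAc and VTA (left) and PFC and NAc (right), with colours for groups. The left cloud slopes down (r = -0.38) and the right one has no slope (r = -0.002).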

How the data were processed

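Total RNA of 6 brain regions was made into strand-specific, rRNA-depleted libraries read as 2 ends of 150 bp, per the labels. FastQC, HISAT2, SAMtools and HTSeq with genome build mm10 were used per the submitters' processing notes; versions, settings and the annotation are not given in the sources used here. The authors deposited raw counts per Ensembl gene and library. They also deposited 1 scaled table per region, whose signal equals the counts divided by 1 constant per library; these gave the constants and the reads in no annotated feature. The other deposited file was not used, and 0 value columns lacked a sample.

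Symbols, positions and exon lengths come from GENCODE M21 (GRCm38, the assembly called mm10). CPM is a gene's count divided by the library total of the count table. Within each region, genes passing the edgeR filter at a minimum count of 10 were scaled with TMM, and the quasi-likelihood test of edgeR 4.0.16 was run separately for the 24 h and the 30 d groups. The p-values were adjusted by Benjamini and Hochberg over all genes of the fit, and a gene was called at an adjusted p under 0.05. Regions were compared in S24 with the mouse as a block, because the regions come from the same animals. Log2 values of single libraries carry a prior count of 1. Replicates were compared pairwise by chi-square, and in 1156 pairs this statistic divided by its degrees of freedom was never below 6.65, so none were within sampling noise. Alternatives were DESeq2 1.42.0, no filter, other scalings, covariates, code sets and left-out libraries.

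Zswim6, the lists and the tests were chosen with earlier results of these data known. Apart from Zswim6, the genes named are the Zswim family, neighbours within 500 kb, 5 genes by each measure of likeness, up to 4 called members per list with the smallest p, and Acer2, Dio2 and Fos. Lcn2, Il1r1, Inhba, Dhrs3 and Gm22118 were named after their values were seen. Lists were the Zswim family, cullin ligase parts, immediate early genes, cell type markers and genes of a span like that of Zswim6.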

Additional observations from a re-analysis of the deposited data

Results flagged for a closer look

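Zswim6 in the dStri library of SS mouse 22 stood at 123.98 CPM, apart from the other 7 SS libraries of that region, which ran from 144.8 to 161.9 CPM. The gap was 0.549 of the range of the group. Of 30 groups of 4 to 10 libraries searched, 1 held such a library, where chance gives about 1 in 20 groups, or 1.5 here.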

How the results depend on the processing

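Outside the PFC values at 30 d, no group difference of Zswim6 passed under an alternative, with adjusted p of 0.69 or more. Between regions, the SS libraries in place of S24 gave BLA minus VTA 0.0631, no longer past the threshold, and BLA minus vHPC -0.30, which passed. They gave BLA minus PFC 0.10 and PFC minus VTA -0.0417, without a test because these PFC libraries were used to choose the gene. Library totals without TMM factors gave BLA minus VTA 0.16, which did not pass. The S24 regions come from the same mice, and without the replicate block NAc minus dStri was -0.90, PFC minus dStri -2.48 and BLA minus VTA 0.24, with no call changed among the 15 pairs. The groups of mice share no replicate numbers.

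Among the alternative runs of group differences outside PFC, 16 changed sign, several of them runs of the same difference, and the cause was not tested. With the excitatory neuron score as a covariate these were H24 against S24 in BLA (-0.0562), HH against HS in BLA (0.0199), HH against SH in vHPC (-0.00885), HS against SS in VTA (-0.0236) and in dStri (0.0208), and challenge by history in VTA (0.0463). With the oligodendrocyte score they were H24 against S24 in BLA (-0.0242), HH against SH in vHPC (-0.0247), SH against SS in VTA (0.0272) and challenge by history in dStri (0.0101). With the no-feature share they were H24 against S24 in BLA (-0.00843) and VTA (0.00303) and HH against SH in vHPC (-0.0177). With the code set as a covariate HH against SH in vHPC was -0.0260. Without the libraries that stand apart HH against SH in dStri was 0.00843 and challenge by history 0.0409. The PFC difference of challenge by history, near 0, ran from -0.03 to 0.01 over the alternatives. The correlation of BLA and vHPC was -0.116 within code set 3, and other pairs of regions also changed sign within code sets. By Spearman rho, 0 pairs passed with library totals and within each code set, where 1 passed otherwise. Precision is limited by the number of mice and, for the lowest libraries, by 581 counts of Zswim6.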
